A study of Mus musculus and Macaca nemestrina with 20 samples.

Results

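The collagen genes of dorsal root ganglia (DRG) were described in knockout mice and in treated monkeys. Members were all rows whose symbol is Col, a number, the letter a and a number in the mouse tables, or the same in capitals in the monkey tables. This rule took 44 of 29766 mouse genes and 44 of 35194 monkey genes. No measured value entered it. The mouse tables held no Col21a1 row and the monkey tables no COL6A4 row, and 2 monkey symbols with an added suffix were not matched.

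Collagens are extracellular proteins built from 3 α chains that wind into a triple helix. They fall into classes by what they build. Fibrillar collagens form the tension-bearing fibrils of connective tissue, FACIT collagens decorate the surface of those fibrils, beaded filament collagen VI links fibrils to cells, and collagen IV forms the sheet of basement membranes. Network-forming, multiplexin, anchoring fibril and transmembrane collagens make smaller assemblies or stay at the cell surface. In a ganglion, fibroblasts of the capsule and endoneurium are known producers of fibrillar collagen and collagen VI. Basement membranes surround Schwann cells, satellite glia and vessels.

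DRG hold the cell bodies of sensory neurons, and bulk RNA sequencing measures all cells of the ganglion together, so fewer cells of a type and less RNA per cell cannot be told apart. The 14 mouse libraries were 7 labelled ADAM17 KO, a knockout of a membrane protease that sheds growth factor ligands, and 7 labelled ADAM17 flox, the control. The labels put 4 knockout and 3 flox libraries in batch 1, with the remaining 3 knockout and 4 flox in batch 2, and do not say what a batch is. In pig-tailed monkeys (Macaca nemestrina), 3 libraries came from ganglia serving skin that had received SADBE (squaric acid dibutyl ester, which provokes contact allergy) and 3 from ganglia serving control skin given vehicle. The labels give no age, strain, Cre driver or time, and do not say whether a library came from its own animal, so the p-values cover the spread of these libraries, which may be technical.

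Sequencing depth, as the total count in units of 1000000, differed most between genotypes in batch 1, at 12.1 to 14.7 for knockout libraries and 46.9 to 52.1 for flox. Batch 2 knockout libraries had 27.9 to 30.8, batch 2 flox 30.9 to 36, and monkeys 9.02 to 27.1. Adam17 itself did not pass the test in the knockout libraries, with a log2 fold change of 0.03 ± 0.18 (SE, 7 against 7 libraries, edgeR adjusted p = 0.93), and the labels do not say which exons or cells the deletion covers. Knockout libraries 6 and 7 stood apart from the other 12 mouse libraries in the summed level of 4 Y-linked genes, at 61.4 to 68.4 TPM against 1.32 to 4.15. Both lie in batch 2 and no flox library was as high, so any effect of sex there is partly confounded with genotype. Sex was not in the model. SADBE libraries 2 and 3 were closer to each other than other monkey pairs of the same group, with a chi-square per gene of 20.9 against 214 to 401. This was still far above sampling noise, and pairs across groups were not compared.

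Levels are given in TPM, the number of transcripts of a gene per 1000000 transcripts, which allow comparison between genes of different length. Mouse TPM were rescaled so that the genes of each library sum to 1000000. Fold changes come from counts, tested with edgeR's quasi-likelihood test with batch in the mouse model. A gene was called when its Benjamini-Hochberg adjusted p over all genes tested was under 0.05. Errors of fold changes are standard errors (SE) and errors of levels are standard deviations (SD).

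Collagen transcripts were lower in the knockout ganglia. Of the 44 mouse collagens, 40 passed the filter on low counts, and 24 of these fell and 1 rose. Over all 15654 genes tested, 7.51% were called lower and 7.97% higher. The log2 fold change was negative for 35 of the 40 collagens, with a median of -1.02, where the median over all genes was -0.01. The summed collagen level was 349, 764 and 553 TPM in the flox libraries of batch 1 and 237, 185, 194 and 299 TPM in the knockout libraries. In batch 2 it was 824, 560, 534 and 639 TPM in flox and 147, 230 and 212 TPM in knockout. Every knockout library lay below every flox library of its batch. The 4 collagens not tested were Col9a1, Col6a4, Col6a6 and Col17a1, whose highest counts in any library were 18, 35, 72 and 15.

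The number of calls depended on the batches. Without a batch term 12 collagens were called lower and Col28a1 was not called. In batch 1 alone 2 were called, Col4a5 and Col9a2, against 0.687% of all genes, and in batch 2 alone 16, against 5.99%. Without knockout libraries 6 and 7 the count was 19. With every library thinned to the depth of the shallowest, 36 collagens were tested and 23 were called lower, with Col18a1 newly among them (edgeR adjusted p = 0.0497). For 11 collagens every knockout library lay below every flox library of its batch in depth-normalized counts, in both batches, which held for 2.31% of all genes tested. They were Col1a1, Col1a2, Col2a1, Col3a1, Col5a1, Col4a5, Col4a6, Col9a2, Col22a1, Col6a2 and Col8a2.

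**Figure D1:**
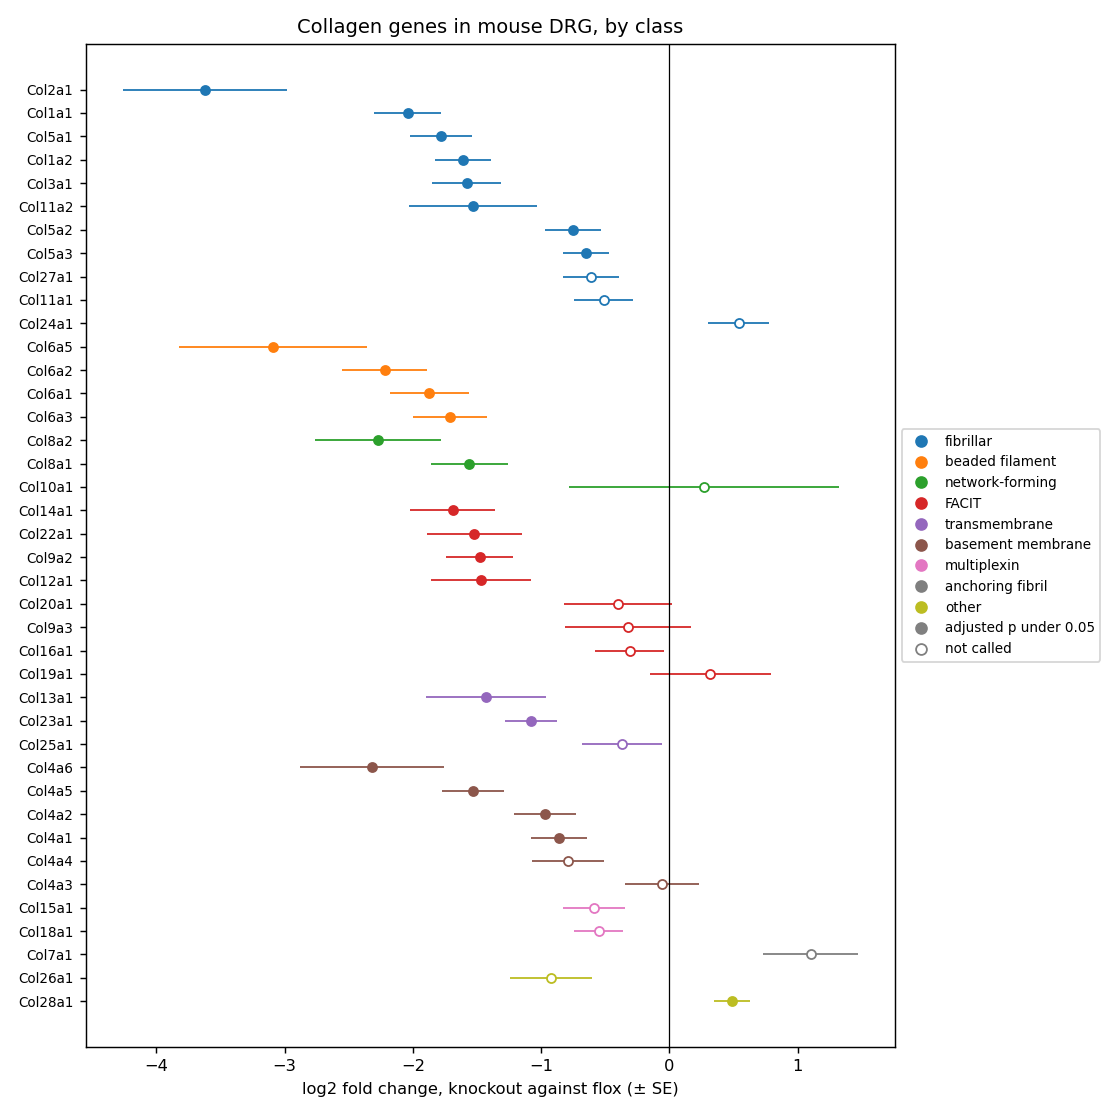
Log2 fold change of each tested mouse collagen, knockout against flox, with its SE (horizontal axis), grouped by class. Filled points passed the test, open points did not. The 4 tested beaded filament genes lie between -3.09 and -1.71, and Col28a1 is the filled point on the positive side.

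The fibrillar class held the most called genes, with 8 of 11 members lower and a median log2 fold change of -1.53. Col1a1 and Col1a2 encode the chains of collagen I, the main fibril protein of skin, tendon and nerve sheath. Col1a1 (GRCm38 chromosome 11, 94936224 to 94953042, plus strand, GENCODE M21) stood at 27.1, 56 and 48 TPM in flox and 10.5, 7.77, 7.91 and 18.2 TPM in knockout libraries of batch 1. In batch 2 it stood at 101, 64.1, 66.9 and 63.7 TPM in flox and 11.1, 18.8 and 14.4 TPM in knockout. No knockout library reached a flox library in either batch. The fold change was 4.11-fold lower, or -2.04 ± 0.26 on the log2 scale (SE, n = 7 and 7, edgeR adjusted p = 0.000145), lower in both batches at -1.92 ± 0.40 and -2.19 ± 0.28.

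Col1a2 fell by less, at -1.61 ± 0.22 (edgeR adjusted p = 0.00019). Its levels in batch 1 were 73.1, 143 and 111 TPM in flox and 37.6, 28.1, 25.9 and 51.2 TPM in knockout. In batch 2 they were 144, 99.3, 97 and 123 TPM against 25.2, 35.1 and 39.1 TPM. The ratio of Col1a1 to Col1a2 in TPM was lower in knockout, without overlap in batch 1 and with overlap in batch 2, at 0.304 ± 0.0361 (SD, n = 4) against 0.398 ± 0.0315 (SD, n = 3) in batch 1 and 0.448 ± 0.0832 (SD, n = 3) against 0.638 ± 0.0829 (SD, n = 4) in batch 2. The collagen I protein holds α1 and α2 chains in fixed proportion, whereas these ratios are of transcripts.

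Col3a1, the chain of collagen III, which accompanies collagen I in soft tissue, was the most abundant collagen transcript in flox ganglia of both batches, with means of 116 ± 45.8 TPM (SD, n = 3) and 259 ± 68.6 TPM (SD, n = 4). Single libraries gave 74.3, 165 and 108 TPM in flox and 32.3, 34.1, 20.1 and 52.1 TPM in knockout in batch 1. Batch 2 gave 360, 242, 210 and 224 TPM in flox and 45.3, 79.4 and 77.1 TPM in knockout. The groups did not overlap within a batch, and the log2 fold change was -1.58 ± 0.27 (edgeR adjusted p = 0.00132). In knockout ganglia of batch 1 Col1a2 (35.7 ± 11.5 TPM, SD, n = 4) and Col3a1 (34.7 ± 13.2 TPM, SD, n = 4) stood level, within their spread.

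Col5a1, a chain of collagen V, which sits inside collagen I fibrils and sets their width, fell by 1.78 ± 0.24 on the log2 scale (edgeR adjusted p = 0.000171). Its partner chain Col5a2 fell by 0.75 on the log2 scale and Col5a3 by 0.65. The Col5a1 to Col5a2 ratio was 0.898 ± 0.0721 (SD, n = 3) in flox and 0.568 ± 0.0673 (SD, n = 4) in knockout of batch 1, and 0.42 ± 0.0969 (SD, n = 4) and 0.152 ± 0.1 (SD, n = 3) in batch 2. It did not overlap between genotypes within either batch. Leaving out each library in turn ended the call of Col5a2 in 7 of 14 cases and of Col5a3 in 2, without knockout library 5 or 6.

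Col2a1 and Col11a2, best known from cartilage, were present at low level and also fell. Col2a1 changed by -3.62 ± 0.64 (edgeR adjusted p = 0.00153), with levels of at most 3.14 TPM in flox and 0.322 TPM in knockout. On the scale of log2(TPM + 1), which understates changes of genes this low, the smallest value among the alternatives was -0.95. Col11a2 lost its call in 11 of the 14 fits that left out a library. Some other cartilage and bone genes also fell. Of 13 listed markers 9 were tested and 3 fell, namely Chad (-3.03), Bglap (-2.15) and Epyc (-1.05). Among all genes tested 7.51% were called lower. The other tested markers were not called, from Matn3 at -2.02 to Dmp1 at 0.12 and Hapln1 at 0.15. The summed level of the list was 61.7 to 127 TPM in flox and 24.1 to 51.1 TPM in knockout libraries. The markers not tested, Matn1, Snorc, Sp7 and Acan, were at 0 in 10, 7, 4 and 1 of the 14 libraries. Their highest levels were 0.655, 7.1, 0.983 and 2.55 TPM. The part of these tissues in the collagen values was not tested. Among the fibrillar genes Col11a1, Col27a1 and Col24a1 were not called, and Col24a1 had a positive log2 fold change of 0.54.

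**Figure D2:**
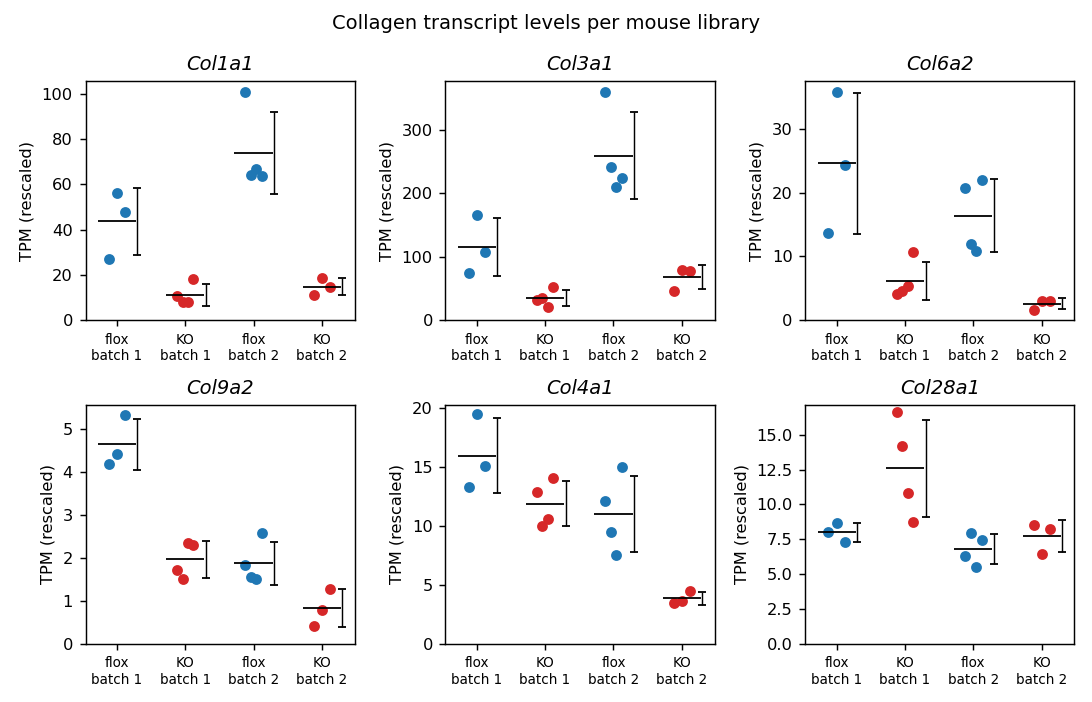
Level of 6 collagens in each mouse library in TPM (vertical axes from 0, rescaled), by genotype and batch. Points are libraries, horizontal lines are means and bars at the side are the SD. For Col1a1, Col3a1, Col6a2 and Col9a2 the knockout points of each batch lie below its flox points, for Col4a1 they do so in batch 2, where knockout reached 4.5 TPM, and for Col28a1 the knockout points reach 16.6 TPM.

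Collagen VI, the beaded filament class, had the lowest class median, -2.05, and all 4 members tested fell. Its 3 main chains are made in a shared assembly that connects cells to the surrounding matrix. Col6a2 read 13.6, 35.8 and 24.4 TPM in flox and 4.03, 4.6, 5.36 and 10.6 TPM in knockout of batch 1, then 20.7, 12, 10.9 and 22 TPM in flox and 1.57, 3.06 and 3.01 TPM in knockout of batch 2. Groups did not overlap in either batch, and the change was -2.22 ± 0.33 (edgeR adjusted p = 0.000514). Col6a1, which neighbours Col6a2 on chromosome 10 at a distance of 85.2 kb, changed by -1.87 ± 0.31 and Col6a3 by -1.71 ± 0.29 (edgeR adjusted p = 0.00102 and 0.00107).

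Col6a1 levels were 15.7, 40.6 and 34.6 TPM in flox and 5.82, 8.75, 8.76 and 14.4 TPM in knockout in batch 1, and 30.3, 21, 24 and 35.7 TPM against 3, 6.34 and 7.41 TPM in batch 2. Col6a3 levels were 7.86, 15.8 and 12.6 TPM in flox and 1.81, 2.07, 4.4 and 6.07 TPM in knockout in batch 1, and 11.6, 9.01, 9.47 and 10.4 TPM against 2.36, 3.4 and 1.5 TPM in batch 2. In TPM, neither gene's knockout libraries overlapped the flox libraries of their batch. The ratio of Col6a1 to Col6a3 overlapped between genotypes, at 2 to 2.74 in flox and 1.99 to 4.23 in knockout of batch 1. Of the minor chains, Col6a5 fell (-3.09 ± 0.73, edgeR adjusted p = 0.00989) at counts of at most 235, and Col6a4 and Col6a6 were not tested.

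The network-forming genes Col8a1 and Col8a2 encode collagen VIII, which forms hexagonal lattices under vessel and corneal endothelium. Col8a1 levels were 5.03, 19.8 and 12.6 TPM in flox and 4.11, 3.27, 4.36 and 5.43 TPM in knockout of batch 1. In batch 2 they were 9.15, 3.69, 4.21 and 7.52 TPM in flox and 1.44, 2.07 and 1.92 TPM in knockout. Groups overlapped in batch 1 and not in batch 2, and the change was -1.56 ± 0.30 (edgeR adjusted p = 0.00285). Col8a2 changed by -2.27 ± 0.49 (edgeR adjusted p = 0.0071). The ratio of Col8a1 to Col8a2 in batch 1 was 5.23 ± 1.74 (SD, n = 4) in knockout and 1.63 ± 0.199 (SD, n = 3) in flox, whereas in batch 2 the values of 1.07 ± 0.589 (SD, n = 3) and 0.865 ± 0.143 (SD, n = 4) overlapped. Col10a1, the cartilage growth plate member, had 44 counts at most and was not called (0.27 ± 1.05). In batch 1 alone its log2 fold change was 1.73 ± 0.54 (edgeR adjusted p = 0.148). Knockout levels there, 0.244 to 0.711 TPM, lay above flox levels, 0.161 to 0.194 TPM. It was not tested in batch 2 alone.

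FACIT collagens were divided. Col9a2, Col12a1, Col14a1 and Col22a1 fell, with log2 fold changes of -1.48, -1.47, -1.69 and -1.52, and the other 4 tested members were not called, at -0.40 to 0.32. Col9a2, a chain of collagen IX that coats fibrils, stood at 4.19, 4.43 and 5.32 TPM in flox and 1.71, 1.5, 2.35 and 2.29 TPM in knockout of batch 1. In batch 2 it stood at 1.84, 1.55, 1.5 and 2.59 TPM against 0.403, 0.789 and 1.28 TPM. Its groups did not overlap within a batch, and the edgeR adjusted p was 0.00131 with an SE of 0.26. Col12a1 and Col14a1, which bind collagen I fibrils in dense connective tissue, had SEs of 0.39 and 0.33. Col16a1 was the third most abundant collagen in knockout ganglia of batch 1, at 19.8 ± 7.7 TPM (SD, n = 4). Flox of that batch stood at 19.2 ± 6.78 TPM (SD, n = 3), a difference within the spread. Batch 2 knockout averaged 4.8 ± 0.644 TPM (SD, n = 3) and flox 8.98 ± 3.78 TPM (SD, n = 4), with overlapping ranges. Tested alone, batch 2 gave -0.88 ± 0.36 on the log2 scale (edgeR adjusted p = 0.133), with the opposite sign to batch 1 (0.19 ± 0.28). The batch by genotype interaction of Col16a1 had an unadjusted edgeR p of 0.0288 and did not pass (adjusted p = 0.28).

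Collagen IV genes fell in 4 of 6 cases, with a median of -0.92. Col4a1 and Col4a2, whose chains make the collagen IV of nearly all basement membranes, changed by -0.86 ± 0.22 and -0.97 ± 0.24 (edgeR adjusted p = 0.016 and 0.0137). Col4a1 levels were 13.3, 19.5 and 15.1 TPM in flox and 12.9, 10, 10.6 and 14.1 TPM in knockout of batch 1, where the groups overlapped. In batch 2 they were 12.1, 9.48, 7.51 and 15 TPM in flox and 3.46, 3.6 and 4.5 TPM in knockout, with no overlap.

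Col4a2 followed its partner, at 8.08, 8.63 and 6.75 TPM in flox and 6.54, 4.28, 5.94 and 6.87 TPM in knockout of batch 1, and 4.71, 3.81, 2.63 and 5.08 TPM against 1.27, 1.22 and 1.12 TPM in batch 2. Within batches the log2 fold changes were -0.39 ± 0.21 and -1.38 ± 0.25 for Col4a1 and -0.36 ± 0.21 and -1.62 ± 0.26 for Col4a2. The batch by genotype interaction was -1.30 ± 0.34 for Col4a2 (edgeR adjusted p = 0.0764) and -1.03 ± 0.35 for Col4a1 (edgeR adjusted p = 0.175), and neither passed. No collagen passed the interaction test in edgeR, which called 1.03% of all genes, and 5 of 40 had an unadjusted p under 0.05, as did 2169 of all 15654 genes, a similar share. DESeq2 called Col4a2 (adjusted p = 0.0125), and so did edgeR without flox library 6 (adjusted p = 0.0228). Both Col4a1 and Col4a2 lost their calls without knockout libraries 6 and 7, at edgeR adjusted p = 0.107 and 0.12.

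Col4a5 and Col4a6 lie head to head on the X chromosome, 1.3 kb apart, and encode chains of more specialised basement membranes. Col4a5 read 2.6, 5.68 and 4.26 TPM in flox and 1.32, 0.934, 1.28 and 0.844 TPM in knockout of batch 1, and 1.3, 2.26, 1.88 and 1.24 TPM against 0.484, 0.598 and 0.593 TPM in batch 2. The genotypes were separate in both batches, and the change was -1.53 ± 0.24 (edgeR adjusted p = 0.000668). Col4a6 changed by -2.32 ± 0.56 (edgeR adjusted p = 0.0114) at counts of at most 181. Col4a3 and Col4a4, a head-to-head pair on chromosome 1 that are 0.1 kb apart, were not called, at -0.06 and -0.79. Of the 3 head-to-head pairs, only in that of Col4a3 with Col4a4 was neither partner called.

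**Figure D3:**
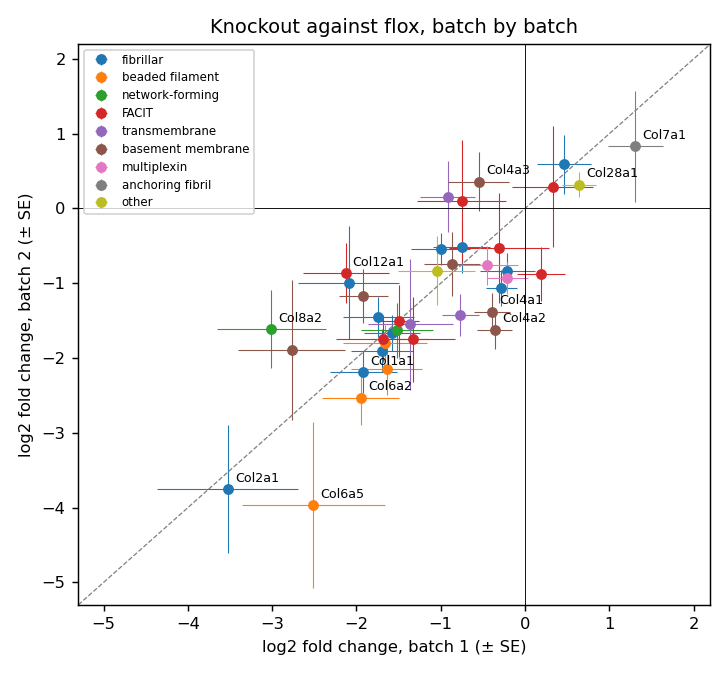
Log2 fold change of each collagen in batch 1 (horizontal) and batch 2 (vertical), with SEs, coloured by class; the dashed line marks equal change. The 31 genes negative in both batches fill the lower left, Col4a1 and Col4a2 lie below the line at -1.38 and -1.62 in batch 2, and Col28a1 and Col7a1 are positive in both.

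Of 39 collagens tested in each batch separately, 31 (79.5%) had negative log2 fold changes in both and 4 positive ones in both. Over all 14872 such genes 34.4% were negative in both. Across these 39 genes, which share libraries and depth within a batch and are not independent, the rank correlation of the batches' log2 fold changes was 0.731.

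The multiplexins Col15a1 and Col18a1, which carry sugar chains and sit at the outer side of basement membranes, were not called, at -0.59 ± 0.24 and -0.55 ± 0.19 (edgeR adjusted p = 0.104 and 0.0565). Col15a1 stood at 13.3, 25.9 and 13.6 TPM in flox and 13, 9.32, 8.49 and 19.6 TPM in knockout of batch 1, where groups overlapped. In batch 2 it stood at 7.01, 8.21, 6.05 and 7.77 TPM against 2.82, 2.97 and 5.16 TPM, where they did not. Col18a1 levels were 5, 7.93 and 6.59 TPM in flox and 5.88, 4.27, 5.5 and 6.73 TPM in knockout of batch 1, and 4.01, 4.41, 3.79 and 5.31 TPM against 1.95, 2.39 and 1.98 TPM in batch 2. Without knockout library 4 both genes passed, at edgeR adjusted p = 0.0139 for Col15a1 and 0.0122 for Col18a1, and Col18a1 also passed without flox library 1 (0.0216).

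Among transmembrane collagens, which stay anchored in the cell membrane, Col23a1 fell by 1.08 ± 0.20 on the log2 scale (edgeR adjusted p = 0.00259). Its levels were 5.98, 8.61 and 9.37 TPM in flox and 5.27, 3.91, 3.95 and 5.34 TPM in knockout of batch 1, and 5.16, 4.61, 5.29 and 7.57 TPM against 1.34, 2.26 and 1.88 TPM in batch 2. In TPM the genotypes did not overlap within a batch. Col13a1 was also called (-1.43 ± 0.47), and lost its call in 11 of the 14 fits without a library.

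Col28a1 was the only collagen called higher, by 0.49 ± 0.14 on the log2 scale (edgeR adjusted p = 0.0288). It encodes a small von Willebrand domain collagen known from the sheath of peripheral glia. In batch 1 its levels were 8, 8.65 and 7.33 TPM in flox and 16.6, 14.2, 10.8 and 8.75 TPM in knockout, with no overlap in TPM. In batch 2 they were 6.3, 7.92, 5.53 and 7.41 TPM in flox and 8.55, 6.45 and 8.2 TPM in knockout, where the groups overlapped. Within batches its log2 fold change was 0.64 ± 0.20 and 0.32 ± 0.17, not called in either. The call was lost in 6 of 14 fits that left out a library, namely knockout library 1, 2 or 7 or flox library 2, 3 or 6, with edgeR adjusted p of at most 0.0775. Col7a1, the anchoring fibril collagen of the skin's junction zone, had the highest log2 fold change of the tested members, 1.10 ± 0.37, and was not called (edgeR adjusted p = 0.0556) at counts of at most 189. It passed without knockout library 5 (edgeR adjusted p = 0.0385) or flox library 5 (edgeR adjusted p = 0.0216).

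The make-up of the collagen transcripts differed between genotypes. Fibrillar genes gave 56.5% ± 1.8 (SD, n = 3) of collagen TPM in flox and 45.7% ± 4.36 (SD, n = 4) in knockout of batch 1, and 73.8% ± 3.81 (SD, n = 4) and 65.2% ± 2.45 (SD, n = 3) in batch 2. Ranges did not overlap within a batch in TPM, while with depth-scaled counts in place of TPM they overlapped in batch 2, where knockout library 7 stood at 70.5% and flox library 7 at 69.5%. The basement membrane share was 6.07% ± 1.39 (SD, n = 3) in flox and 9.82% ± 1.02 (SD, n = 4) in knockout of batch 1, and 3.62% ± 0.818 (SD, n = 4) and 6.14% ± 1.36 (SD, n = 3) in batch 2, again without overlap, although the summed level of the class was lower in knockout, at 22.2 ± 3.88 TPM (SD, n = 4) against 31.9 ± 5.84 TPM (SD, n = 3) in batch 1 and 11.7 ± 0.321 TPM (SD, n = 3) against 22.5 ± 3.73 TPM (SD, n = 4) in batch 2. Beaded filament genes went from 12.1% to 8.41% and from 8.6% to 5.34%. The remainder class of Col26a1 and Col28a1 went from 2.17% to 6.64% and from 1.42% to 4.55%. The multiplexin share went from 4.44% to 7.84% and from 1.87% to 2.98%, without overlap within a batch. The FACIT share went from 13.1% to 15.6%, with overlap, and from 7.49% to 12.2%, without. With depth-scaled counts it overlapped in batch 2 as well, at 3.02% to 4.77% in flox and 4.26% to 6.6% in knockout. As for basement membrane genes, these larger shares went with lower mean levels. FACIT genes went from 76.1 to 35.5 and from 48.2 to 24.4 TPM. Multiplexins went from 24.1 to 18.2 and from 11.6 to 5.76 TPM. The remainder class went from 11.3 to 14.4 and from 8.75 to 8.53 TPM.

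**Figure D4:**
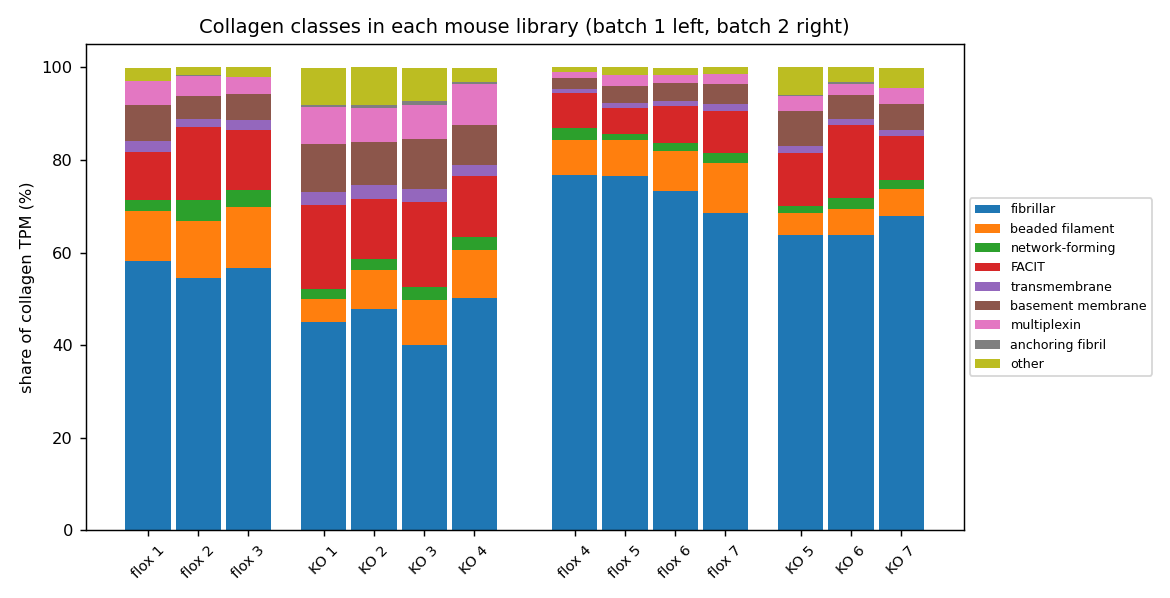
Share of each collagen class in the summed collagen TPM of every mouse library, in percent (stacked bars from 0). The fibrillar share is 54.6% to 58.2% in flox and 40% to 50.1% in knockout libraries of batch 1, and 68.6% to 76.7% and 63.7% to 68% in batch 2.

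Promoter sequences are shown for 3 genes of different classes that fell, Col3a1, Col6a2 and Col8a1. Beside them stand 2 uncalled genes with positive change, Col24a1 and Col7a1, to set windows of falling and non-falling genes side by side. The windows shown were free of annotated exons, and those of other uncalled genes with positive change were not checked for this. Each is the 200 bases before the RefSeq start site, 5′ to 3′ on the gene's strand, from RefSeq on GRCm38.p6. Positions are chr1:45311338-45311537 (plus) for Col3a1, chr10:76623631-76623830 (minus) for Col6a2, chr16:57754738-57754937 (minus) for Col8a1, chr3:145292272-145292471 (plus) for Col24a1 and chr9:108953386-108953585 (plus) for Col7a1. Capitals mark 3 motifs on either strand: the GC box, GGGCGG or on the opposite strand CCGCCC, the CCAAT box, read CCAAT or on the opposite strand ATTGG, and the TATA box, read TATAAA or on the opposite strand TTTATA.
Col3a1: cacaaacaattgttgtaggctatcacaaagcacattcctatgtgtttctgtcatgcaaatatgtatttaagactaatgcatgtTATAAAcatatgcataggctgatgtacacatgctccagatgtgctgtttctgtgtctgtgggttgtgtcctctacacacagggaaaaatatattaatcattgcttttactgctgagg
Col6a2: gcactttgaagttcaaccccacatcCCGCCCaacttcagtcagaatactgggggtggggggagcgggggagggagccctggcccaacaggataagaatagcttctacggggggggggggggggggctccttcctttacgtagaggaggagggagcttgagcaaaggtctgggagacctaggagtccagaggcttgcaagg
Col8a1: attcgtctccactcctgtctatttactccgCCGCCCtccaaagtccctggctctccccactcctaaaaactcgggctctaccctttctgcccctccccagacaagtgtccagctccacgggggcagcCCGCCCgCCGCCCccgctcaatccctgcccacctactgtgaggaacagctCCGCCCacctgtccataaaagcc
Col24a1: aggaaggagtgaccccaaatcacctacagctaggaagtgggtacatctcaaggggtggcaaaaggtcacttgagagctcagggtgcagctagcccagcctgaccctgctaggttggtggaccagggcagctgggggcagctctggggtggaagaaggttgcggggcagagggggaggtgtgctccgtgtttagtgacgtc
Col7a1: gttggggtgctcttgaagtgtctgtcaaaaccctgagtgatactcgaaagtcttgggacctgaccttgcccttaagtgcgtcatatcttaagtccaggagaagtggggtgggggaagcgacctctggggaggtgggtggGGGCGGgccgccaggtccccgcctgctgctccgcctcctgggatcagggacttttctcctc
The Col8a1 window held 4 GC boxes, starting 170, 73, 66 and 23 bases before the start site, Col6a2 held 1 at 175 and Col7a1 1 at 61. The Col3a1 window held a TATA box at 117 and no GC box, and Col24a1 held none of the 3 motifs. Genes that fell to a similar degree, Col3a1 and Col8a1, shared none of these motifs in the window.

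The RefSeq table held 38 windows for 35 of the 44 collagens, Col1a1 not among them. A GC box lay in 57.9% of the collagen windows and 31% of all 32851 windows, a CCAAT box in 26.3% and 29.3%, and a TATA box in 10.5% and 10%. Of the 19 windows of collagens called lower 14 held a GC box, and of the 19 other collagen windows 8 did. These are counts of letters in a window and were not tested. Col4a1 and Col4a2 start on opposite strands of chromosome 8 with overlapping gene bounds (11198423 to 11312826 and 11312805 to 11449287), so the bases before each start lie in the other gene, and none are printed.

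Genes that make and process collagen moved less uniformly. For all lists of such genes, the shares called over all genes tested were 7.51% lower and 7.97% higher. A single called gene in a short list cannot be told from these shares. Of 7 tested genes for propeptide removal, the trimming that lets procollagen assemble into fibrils, 5 fell, and the median log2 fold change was -1.20. The 4 with the lowest p were Adamts2 (-1.69) and Adamts14 (-1.46), which cut the amino end, Bmp1 (-0.77), which cuts the carboxyl end, and its enhancer Pcolce (-1.20). In proline hydroxylation 4 of 10 fell, and these were the prolyl 3-hydroxylase genes P3h1 (-1.11), P3h2 (-1.03) and P3h3 (-1.25) and their partner Crtap (-0.75). The prolyl 4-hydroxylase genes P4ha1, P4ha2, P4ha3 and P4hb, whose product stabilises the helix, were not called, at -0.21 to 0.45.

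Plod2 (-1.19), a lysyl hydroxylase, fell and Plod3 (0.55) rose among 5 genes of lysine modification. The chaperone gene Serpinh1 (-0.74) and Fkbp10 (-0.51) fell and the export factor Mia2 (0.36) rose among 5. Among 5 lysyl oxidase genes, which cross-link fibrils, Loxl1 (-1.82) fell and Loxl4 (1.35) rose. Of 10 collagen receptor genes Mrc2 (-1.89), Ddr2 (-1.31) and Ddr1 (-0.52) fell and Itgb1 (0.36) rose. Of 9 tested genes of TGF-beta signalling Smad3 (-0.84), Smad7 (-0.79) and Tgfbr3 (-0.46) fell, and the ligand genes Tgfb1, Tgfb2 and Tgfb3 were not called.

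Markers of matrix-producing cells moved with the collagens. Over all genes tested, 7.51% were called lower and 7.97% higher. Of 10 fibroblast markers 9 fell, with a median of -1.17, among them Gsn (-1.17), Scara5 (-1.17), Pdgfra (-0.93) and Dpt (-1.68). Their summed level was 2540 to 4930 TPM in flox and 1270 to 2500 TPM in knockout of batch 1, and 5130 to 7390 and 1990 to 3680 TPM in batch 2, with no overlap within a batch and no marker at 0. Per 100 TPM of fibroblast markers, the fibrillar collagens stood at 6.98 to 8.47 TPM in flox and 5.26 to 8.36 TPM in knockout of batch 1, where they overlapped, and 5.31 to 11 and 3.99 to 4.71 TPM in batch 2, where they did not. All collagens together, per 100 TPM of these markers, overlapped in both batches, at 12.3 to 15.5 TPM in flox and 11 to 18.6 TPM in knockout of batch 1 and 7.23 to 14.3 and 5.9 to 7.4 TPM in batch 2. In batch 2 the overlap rested on flox library 6 at 7.23 TPM and knockout library 5 at 7.4 TPM. The next values were 9.73 TPM in flox and 6.25 TPM in knockout. The marker sum is weighted to abundant genes, as Dcn and Gsn reached 3180 and 3610 TPM and Pdgfra 7.48 TPM. The part of fibroblasts in the collagen values was not tested.

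All 4 meningeal markers fell (median -1.61), with Slc47a1 at -2.07, and their summed level was 48.7 to 169 TPM in flox and 17.8 to 28.7 TPM in knockout of batch 1, and 119 to 178 and 36.1 to 128 TPM in batch 2, where ranges overlapped. Schwann cell markers fell in 5 of 8 cases (median -0.76), including Prx (-1.18), with sums of 4660 to 7650 TPM in flox and 2670 to 3610 TPM in knockout libraries. No endothelial marker of 6 was called (median 0.15), and 1 mural marker of 6 was, Acta2 (-1.16). All 7 neutrophil markers rose (median 3.12), with sums of 656 to 2370 TPM in flox and 5640 to 19500 TPM in knockout of batch 1 and 117 to 253 and 1310 to 2420 TPM in batch 2, and 3 of 8 sensory neuron markers rose, Isl1 (1.09), Tubb3 (0.59) and Prph (0.45). Of the other lists, perineurial markers fell in 2 of 4 cases, keratinocyte markers in 2 of 5 with 1 higher, 1 of 4 satellite glia and 1 of 5 proliferation markers rose, and no skeletal muscle marker of 6 was called. With 7.51% of all genes called lower and 7.97% higher, a single called marker in a short list cannot be told from that background. The part of any of these cell types in the collagen values was not tested.

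In monkeys, no collagen was called between SADBE and vehicle. Of the 44 monkey collagens 37 were tested, 18 had negative and 19 positive log2 fold changes, and the median was 0.10 against -0.01 over all 17988 genes. edgeR called 0 collagens and 0% of all genes, no collagen had an unadjusted p under 0.05 where 550 genes did, and DESeq2 called 0 collagens and 27 genes in all. Every collagen's edgeR adjusted p was 0.999. SEs of the 37 tested collagens were 0.43 to 1.43 on the log2 scale with 3 libraries a group, and the data do not show that the groups are alike.

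The summed collagen level was 844, 526 and 320 TPM in vehicle and 507, 601 and 748 TPM in SADBE libraries, with full overlap. Fibroblast marker sums were 4900, 1170 and 553 TPM in vehicle and 601, 2480 and 2680 TPM in SADBE, so both groups held libraries of high and low fibroblast signal, and its part in the collagen values was not tested. None of the marker and pathway lists had a called gene.

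COL14A1 had the lowest unadjusted p, 0.0733, with a log2 fold change of -1.19 ± 0.58. It stood at 3.43, 3.01 and 1.27 TPM in vehicle and 0.552, 1.09 and 1.59 TPM in SADBE, and the groups overlapped. COL4A1 followed at -1.26 ± 0.66, with 9.6, 12.4 and 1.49 TPM against 4.76, 2.11 and 2.47 TPM, where vehicle library 3 lay below all SADBE libraries. COL28A1 (-1.12 ± 0.70), COL15A1 (0.84 ± 0.53) and COL5A2 (-0.88 ± 0.56) completed the 5 lowest.

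The other orthologs of the mouse genes described gave no call either. COL1A1 stood at 33.5, 32.8 and 16.7 TPM in vehicle and 4.1, 19.7 and 23.1 TPM in SADBE (-0.73 ± 0.65). COL3A1 was the most abundant collagen transcript in both groups, with 414, 187 and 170 TPM against 149, 293 and 395 TPM (0.13 ± 0.61). COL1A2 gave -0.41 ± 0.72, COL4A2 -0.73 ± 0.63, COL18A1 -0.21 ± 0.56, COL4A5 0.66 ± 0.54, COL9A2 -0.28 ± 0.72, COL8A1 0.66 ± 0.79 and COL23A1 0.24 ± 0.43.

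COL6A1 stood at 78.4, 26.4 and 9 TPM in vehicle and 51.2, 92.4 and 95.6 TPM in SADBE, with overlap and no call (1.12 ± 0.73). COL6A2 stood at 41.4, 12.1 and 6.62 TPM in vehicle and 12.7, 15.2 and 25.7 TPM in SADBE (-0.14 ± 0.68). The ratio of COL6A1 to COL6A2 was 3.72 to 6.09 in SADBE and 1.36 to 2.18 in vehicle, with no overlap, and was chosen after its values were seen. The ratio of COL3A1 to COL1A1 did not overlap either, at 14.9 to 36.4 in SADBE and 5.68 to 12.3 in vehicle. The other chain ratios examined in monkeys overlapped, and none was tested. In depth-normalized counts COL7A1 was the only tested collagen whose groups did not overlap, with SADBE above vehicle, although in TPM they overlapped, at 0.584, 0.292 and 0.32 in SADBE and 0.208, 0.304 and 0.237 in vehicle. Over all genes tested, SADBE libraries lay wholly above in 4.63% and wholly below in 4.56%.

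**Figure D5:**
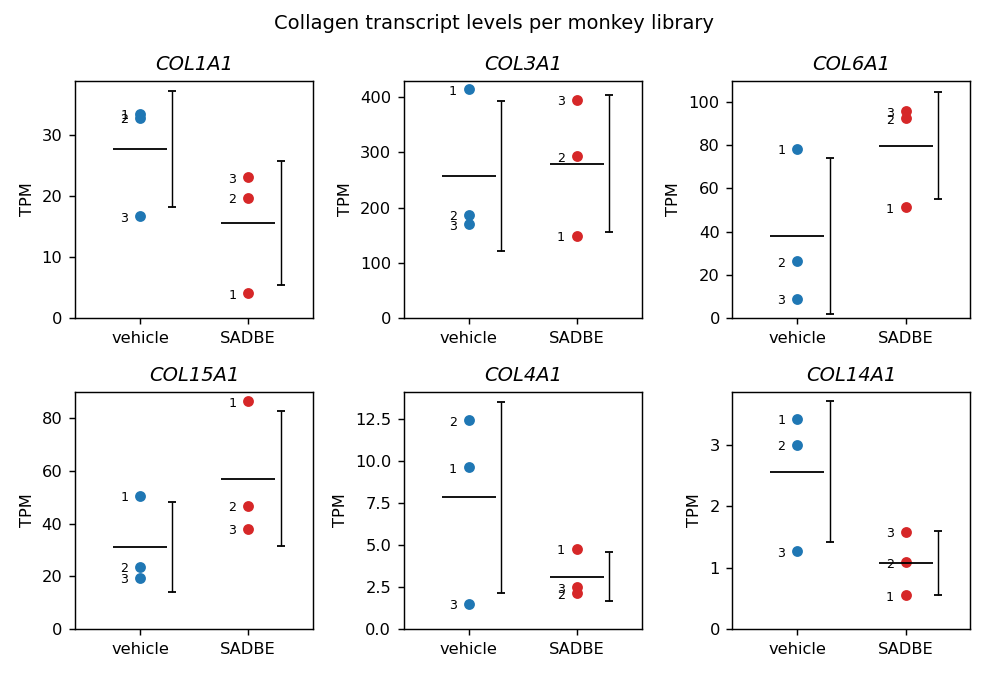
Level of 6 collagens in each monkey library in TPM (vertical axes from 0), vehicle and SADBE. Points are libraries with their replicate number, horizontal lines are means and bars at the side are the SD. The groups overlap in all 6 panels, as for COL3A1 with 170 to 414 TPM in vehicle and 149 to 395 TPM in SADBE.

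The listed levels of some collagens differed between mouse and monkey. The sources used here do not give the transcript set of the monkey tables, which bears on such levels, so a difference between the ganglia themselves cannot be stated. Across 43 orthologs the rank correlation of mean TPM in vehicle with flox was 0.749 for batch 1 and 0.713 for batch 2, while the 2 mouse batches of flox gave 0.973 over 44 genes. COL9A1, a FACIT gene, stood at 7.53 to 72.4 TPM in monkeys, and mouse Col9a1 at no more than 0.247 TPM in any library. COL15A1 was at 19.3 to 86.4 TPM in monkeys and Col15a1 at 2.82 to 25.9 TPM in mice. COL6A3 was listed at no more than 0.29 TPM and 14 counts in any monkey library, where COL6A1 was at 9 TPM or more, while mouse Col6a3 was at 1.5 to 15.8 TPM. Over 33 orthologs tested in both species the rank correlation of log2 fold changes was 0.105.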

How the data were processed

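RNA from DRG of 14 mouse and 6 monkey samples was sequenced in bulk. The authors deposited estimated counts and TPM per gene for each species, made with kallisto, per the submitters' processing notes, which name the build GRCm38 (the sources used here give neither the kallisto version nor the monkey transcriptome). The labels do not state strand, so reads of antisense partners may be shared. Estimated counts were rounded, and a mouse row naming no gene (0.0785% to 0.186% of counts) was left out. The deposited mouse TPM add up to between 601 and 979 times 1000 a library and were rescaled to 1000000. Counts were tested with edgeR 4.0.16 in R 4.3.3, keeping genes by filterByExpr (at least 10 counts, and 15 in total) and scaling by TMM, with batch in the mouse model and Benjamini-Hochberg adjustment over all genes. SEs come from the quasi-likelihood F. The script was tested on simulated counts. Alternatives used DESeq2 1.42.0 and limma 3.58.1 on log2 TPM. Mouse coordinates come from GENCODE M21, in which all 44 members matched by symbol. Collagen classes, pathway lists and marker lists were set by hand from textbook roles. Members and lists were chosen with earlier results of these data known. Named genes were a set of main chains, the called member with the lowest p of each class, the 5 lowest p in monkeys, and up to 4 called genes a list with the lowest p. Other genes named, including COL7A1 and pathway genes that were not called, were chosen after their values were seen.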

Additional observations from a re-analysis of the deposited data

Results flagged for a closer look

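Among 80 sets of 4 mouse libraries (40 collagens in the knockout libraries of batch 1 and in the flox libraries of batch 2), 5 held a library far from the other 3, and chance alone flags about 1 in 20 sets. Col1a1 stood at 101 TPM in flox library 4, with the others at 63.7 to 66.9 TPM. Knockout library 4 was high for Col8a2, at 1.92 TPM against 0.63 to 0.674 TPM, and for Col11a2, at 0.671 TPM against 0.272 to 0.313 TPM. Knockout library 1 was low for Col10a1, at 0.244 TPM against 0.697 to 0.711 TPM. Flox library 6 was low for Col27a1, at 0.477 TPM against 1.63 to 1.93 TPM.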

How the results depend on the processing

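All 25 collagens called in mice kept their sign under each alternative that gave a value, and 20 kept their call in each of the 14 fits without a library, the exceptions being Col11a2, Col13a1, Col28a1, Col5a2 and Col5a3. The count of collagens called lower, 24, was 12 without a batch term and 2 in batch 1 alone, was 19 to 28 under the other alternatives with all or part of the libraries of both batches, and 16 in batch 2 alone. Leaving out each library gave 20 to 28. The count called higher, 1, was 2 with DESeq2 and 0 without a batch term, in batch 1 alone, in batch 2 alone and in the 3 limma fits on log2 TPM, and 0 to 2 with a library left out. The interaction count, 0, was 1 with DESeq2 and 0 to 1 with a library left out. The monkey count was 0 in each of its alternatives. The labels do not say whether replicate numbers pair the samples. Correlations of deviations between libraries of the same number ran from -0.13 to 0.147 in mice and from -0.312 to 0.233 in monkeys. In all, 4 of 14 mouse and 2 of 6 monkey libraries correlated best with their own number. With so few libraries a group, these values cannot decide whether the numbers pair the samples. With the replicate block 23 mouse collagens were lower and 1 higher, and no monkey collagen was called.

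Signs turned only in genes that were not called, and the cause was not tested. Col4a3, -0.06, was 0.22, 0.29 and 0.28 in the 3 limma fits, 0.36 in batch 2 alone, 0.03 when thinned and -0.23 to 0.14 with a library left out. Col16a1 was 0.26 without a batch term and 0.19 in batch 1 alone, Col25a1 0.16 and Col9a3 0.10 in batch 2 alone, and Col19a1 -0.01 in limma with a pseudocount of 0.1. With a library left out Col10a1 ran from -0.08 to 1.35, Col19a1 from -0.15 to 0.54 and Col9a3 from -0.53 to 0.05. In monkeys COL6A2 was 0.16 and 0.19 in limma and 0.23 with the replicate block, and with a library left out ran from -0.56 to 0.98, COL1A2 from -0.80 to 0.21, COL3A1 from -0.24 to 0.64, COL18A1 from -0.90 to 0.05 and COL8A1 from -0.13 to 1.26. With depth-scaled counts in place of TPM the order of the mean shares stayed, with basement membrane at 7.88% in flox and 13% in knockout of batch 1 and 6.14% and 10.7% in batch 2, and fibrillar at 64.9% and 54%, and 75.4% and 69%. Thinning to the shallowest library left 36 collagens tested and gave 23 called lower, Col18a1 newly among them.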
